A study of Mus musculus with 7 samples.

Results

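Dual-specificity phosphatases of the MAP kinase pathway are described here by the RNA levels of 8 genes, Dusp1, Dusp2, Dusp4, Dusp5, Dusp6, Dusp10, Dusp14 and Dusp16, out of 17920 genes measured in mouse spleen. The 8 were taken by name. All 8 were found in the data, and all 8 were among the 11378 genes whose mean level over the libraries reached 1 FPKM (fragments mapped to a gene, scaled by transcript length and library size) and which were tested. The study compared wild-type mice with mice lacking GdX, also called UBL4A, a small ubiquitin-like protein encoded by the X-linked gene Ubl4a, after an injection of lipopolysaccharide (LPS), a bacterial cell wall component that starts inflammatory signalling. Every mouse was C57BL/6, 8 weeks old, and received LPS at 20 mg/kg into the abdominal cavity. RNA of whole spleen homogenate, with its source labelled as splenocytes, gave 2 libraries of wild type at 90 min, 2 of GdX-deficient mice at 90 min, 2 of wild type at 6 h and 1 of GdX-deficient mice at 6 h. The genotype is written GdX-/- in one label and GdX-/Y in another, and the deletion is not described further. Spleens without LPS were not analysed here, and the levels before the injection are therefore unknown.

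MAP kinases (ERK, JNK and p38) are switched on by phosphorylation of a threonine and a tyrosine in their activation loop, and dual-specificity phosphatases switch them off by removing both phosphates. Many of these phosphatase genes are themselves switched on by MAP kinase and Toll-like receptor signalling, so that they act as negative feedback. In macrophages and other spleen cells exposed to LPS the family is best known through Dusp1, which limits p38 and JNK signalling and with it the release of inflammatory cytokines.

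The promoters of the inducible nuclear phosphatases Dusp1, Dusp2 and Dusp5 are shown because Dusp1 and Dusp2 gave most of the phosphatase RNA and because these 3 promoters held a match to a motif searched. The RefSeq sequences (GRCm38.p6) run 5′ to 3′ on the gene's own strand, from 250 bases before the start site, without any base in an annotated exon of the gene. Capitals mark matches to a cyclic AMP response element (CRE, TGACGTCA), an E-box (CACGTG) or a CArG box (the site of serum response factor), searched on both strands with no overlap between the matches shown.
Dusp1, chr17:26508520-26508722, minus strand: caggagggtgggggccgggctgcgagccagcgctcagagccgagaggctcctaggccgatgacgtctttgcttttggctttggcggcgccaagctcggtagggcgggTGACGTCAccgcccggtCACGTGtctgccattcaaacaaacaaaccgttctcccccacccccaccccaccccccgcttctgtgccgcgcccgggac
Dusp2, chr2:127335909-127336158, plus strand: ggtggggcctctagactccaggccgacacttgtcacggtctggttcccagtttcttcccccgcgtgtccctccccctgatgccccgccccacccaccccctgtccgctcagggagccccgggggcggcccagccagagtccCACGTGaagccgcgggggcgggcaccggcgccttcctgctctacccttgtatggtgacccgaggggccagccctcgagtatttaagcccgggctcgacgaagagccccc
Dusp5, chr19:53528895-53529108, plus strand: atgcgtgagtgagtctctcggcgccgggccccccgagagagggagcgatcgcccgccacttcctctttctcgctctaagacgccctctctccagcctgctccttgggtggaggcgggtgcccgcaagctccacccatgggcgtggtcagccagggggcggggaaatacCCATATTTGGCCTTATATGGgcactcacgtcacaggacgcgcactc

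The Dusp1 promoter held a CRE 143 bases before the start site and an E-box at 126 bases, and the Dusp2 promoter held an E-box at 109 bases. In Dusp5 a pair of CArG boxes, CCATATTTGG at 82 bases and CCTTATATGG at 72 bases, stood end to end. Of 32851 mouse promoters cut in the same way, 1.55% held a CRE, 6.02% an E-box and 1.47% a CArG box, and 6 promoters (0.0183%) held at least 2 CArG boxes. The search covered all 250 bases, exons included, for members and background alike. Promoter entries were found for 7 of the 8 genes, all but Dusp4. For Dusp14 and Dusp16 the start site of the entry lay 899 and 14435 bases inside the gene's span, so these entries are not described as the promoters of those genes. Those of Dusp6 and Dusp10 held none of these 3 motifs in the bases searched, and none of the other 5 entries held an AP-1 site (TGANTCA, in 6.75% of all promoters) or an NF-kB site (in 7.25%). These matches describe letters in a window and show no binding.

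The genes lie on different chromosomes. Their spans in the RefSeq annotation (GRCm38.p6, a patch of the assembly used for the deposited values) are chr17:26505591-26508472 for Dusp1, chr2:127336159-127338377 for Dusp2, chr8:34807610-34819894 for Dusp4 and chr19:53529145-53541809 for Dusp5. Dusp6 spans chr10:99263231-99267489, Dusp10 chr1:184034381-184075636, Dusp14 chr11:84048033-84069256 and Dusp16 chr6:134715468-134807063.

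Estimated depth was even, from 18600000 to 20600000 fragments per library, by a rough estimate. Ubl4a itself was listed at 5.62 and 7.50 FPKM in wild type and 4.03 and 5.69 in GdX-deficient spleen at 90 min, and at 11.9 and 14.01 against 10.6 at 6 h, so its value did not separate the genotypes at 90 min. Gm44504, a predicted gene that overlaps Ubl4a, did: it lay between 14.5 and 51.1 FPKM in the 4 wild-type libraries and between 0.66 and 1.86 in the 3 GdX-deficient ones. All 6 B cell markers and all 6 red pulp macrophage markers examined were present in every library, as the spleen label requires. Globin genes made up 7.73% to 30.9% of all FPKM. The labels do not say whether replicates came from separate mice, so p-values measure the spread between these libraries, which may be technical. One library stood apart for the phosphatases and is singled out throughout: the library labelled replicate 2 of GdX-deficient spleen at 90 min. Gm44504, at 1.86 FPKM, matched its genotype label, but over all genes it and the single library labelled GdX-deficient at 6 h lay nearest to each other, and the latter lay nearer to all GdX-deficient and 1 of the wild-type libraries at 90 min than to either wild-type library at 6 h (distances are given further on). The time labels of both could not be settled from these values. Every GdX-deficient mean at 90 min rests on the first and every GdX-deficient value at 6 h on the second. Replicate 2 lay outside the range of the other 3 libraries at 90 min for 7 of the 8 phosphatases (70.8% of all tested genes) and by at least 2-fold on the log2(FPKM + 1) scale for 4 of them, Dusp1, Dusp2, Dusp6 and Dusp14 (3.88% of all genes). Each of the other 3 lay outside by that much for 0 phosphatases (0.0176% to 0.817% of genes), and outside by any amount for 1 (wild-type replicate 1, 63.5% of genes), 6 (wild-type replicate 2, 28.3%) and 2 (GdX-deficient replicate 1, 36.7%).

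Within every library Dusp2 had the highest level of the 8 and Dusp1 the second highest. Together they made 68.6% to 86.8% of the summed FPKM of the 8 genes, and that sum ran from 210 to 541 with a median of 352. By mean level over the 7 libraries Dusp2 stood above 96.8% of tested genes, Dusp1 above 92.2%, Dusp5 above 77.0% and Dusp16 above 68.5%. Dusp6 lay near the middle, above 45.1% of genes, and Dusp10, Dusp4 and Dusp14 were low, above 22.3%, 8.56% and 7.89%. Level and variability were ordered differently. By the SD of log2(FPKM + 1) over libraries, Dusp6 exceeded 96.3% of genes, Dusp14 95.1% and Dusp5 91.5%, whereas Dusp16 exceeded 23.8%.

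**Figure D1:**
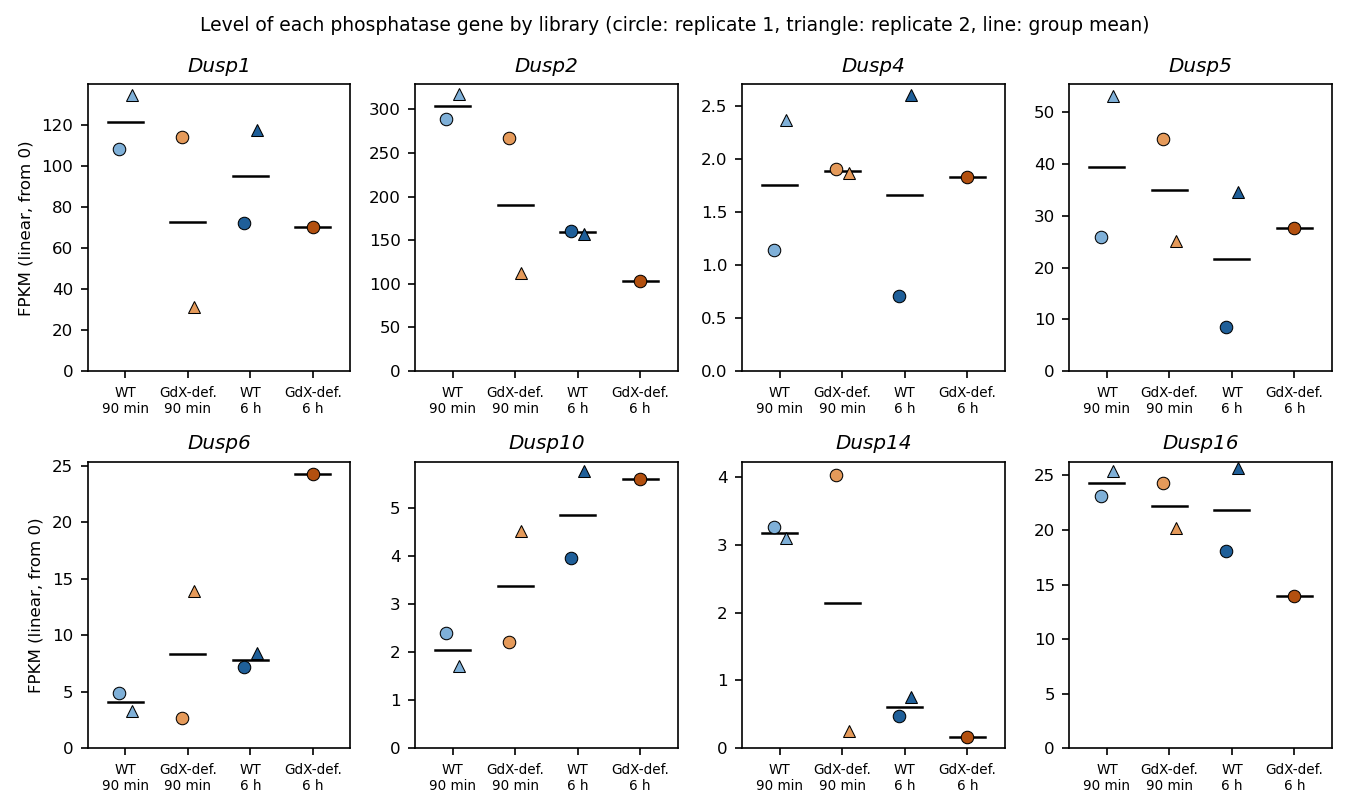
FPKM (vertical axes, linear and starting at 0, with a separate scale per gene) of the 8 phosphatase genes in each library, grouped by genotype and time after LPS along the horizontal axes; circles are replicate 1, triangles replicate 2 and lines group means. At 90 min the triangle of the GdX-deficient group lies far below the other 3 libraries for Dusp1 (31.4 FPKM), Dusp2 (113) and Dusp14 (0.26), and above them for Dusp6 (13.9).

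Among the inducible nuclear phosphatases, Dusp1, which acts mainly on p38 and JNK, was listed at 108 and 134 FPKM in wild type at 90 min, 114 and 31.4 in GdX-deficient spleen at 90 min, 72.2 and 117 in wild type at 6 h and 70.1 in GdX-deficient spleen at 6 h. GdX-deficient replicate 1 at 90 min lay between the wild-type libraries and replicate 2 was the lowest of all 7. Between the GdX-deficient replicates the level differed 3.62-fold, against 1.24-fold between the wild-type replicates at 90 min and 1.63-fold at 6 h. The genotypes overlapped at 90 min, and the times overlapped in wild type.

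Dusp2, a nuclear phosphatase found mostly in blood and immune cells, was listed at 289 and 318 FPKM in wild type at 90 min, 267 and 113 in GdX-deficient spleen at 90 min, 161 and 157 in wild type at 6 h and 103 in GdX-deficient spleen at 6 h. It was the 1 phosphatase of the 8 whose GdX-deficient libraries lay below the wild-type ones at both times, and its later libraries lay below its earlier ones in both genotypes. Wild-type replicates were close, at 303 ± 20.5 FPKM (SD, n = 2) at 90 min and 159 ± 2.45 (SD, n = 2) at 6 h. The GdX-deficient pair at 90 min was wide, at 190 ± 109 (SD, n = 2).

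Dusp5, a nuclear phosphatase selective for ERK, was listed at 25.8 and 53.2 FPKM in wild type and 44.8 and 25.2 in GdX-deficient spleen at 90 min, then at 8.60 and 34.6 in wild type and 27.6 in GdX-deficient spleen at 6 h. Its wild-type replicates differed 2.06-fold at 90 min and 4.02-fold at 6 h, and neither genotypes nor times were separated. Dusp4, a nuclear phosphatase close in sequence to Dusp1, was low, at 1.14 and 2.37 FPKM in wild type and 1.91 and 1.87 in GdX-deficient spleen at 90 min, and 0.71 and 2.61 in wild type and 1.83 in GdX-deficient spleen at 6 h. Its widest spread was between the wild-type replicates at 6 h, 3.68-fold, while the 3 GdX-deficient libraries were nearly level.

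Dusp6, the cytoplasmic phosphatase selective for ERK and a feedback target of that kinase, was listed at 4.87 and 3.33 FPKM in wild type at 90 min, 2.71 and 13.9 in GdX-deficient spleen at 90 min, 7.19 and 8.45 in wild type at 6 h and 24.3 in GdX-deficient spleen at 6 h. The 2 highest libraries were GdX-deficient, but the lowest was GdX-deficient as well. The same 2 high libraries had the highest summed level of 6 neutrophil markers, 4654 FPKM in replicate 2 at 90 min and 2514 at 6 h, against 669 to 1060 in the other 5. They also had the highest summed level of 6 B cell markers, 1993 and 1698 FPKM against 380 to 1498. The part of neutrophil or B cell content in the Dusp6 values was not tested, and in bulk spleen a change in cell numbers and a change in RNA per cell cannot be told apart.

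Dusp10 and Dusp16 act on p38 and JNK, and Dusp16 prefers JNK. Dusp10 was listed at 2.39 and 1.71 FPKM in wild type and 2.22 and 4.52 in GdX-deficient spleen at 90 min, then at 3.96 and 5.76 in wild type and 5.60 in GdX-deficient spleen at 6 h. Every 6 h library lay above the 90 min libraries of its own genotype. Dusp16, the steadiest of the 8, was listed at 23.1 and 25.4 FPKM in wild type and 24.3 and 20.2 in GdX-deficient spleen at 90 min, then at 18.1 and 25.7 in wild type and 13.95 in GdX-deficient spleen at 6 h. The single GdX-deficient library at 6 h was its lowest, and the wild-type libraries of the 2 times overlapped.

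Dusp14, an atypical member without the kinase-binding domain of the others, was listed at 3.26 and 3.10 FPKM in wild type at 90 min, 4.03 and 0.26 in GdX-deficient spleen at 90 min, 0.47 and 0.75 in wild type at 6 h and 0.16 in GdX-deficient spleen at 6 h. The 3 high values stand for an estimated 89.3 to 115 fragments and the 4 low ones for 4.54 to 22.2. All libraries were high at 90 min apart from GdX-deficient replicate 2, which differed 15.5-fold from its partner, and all were low at 6 h. The ratio of Dusp6 to Dusp14 FPKM ran from 0.672 in GdX-deficient replicate 1 at 90 min through 53.6 in replicate 2 to 152 in GdX-deficient spleen at 6 h.

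**Figure D2:**
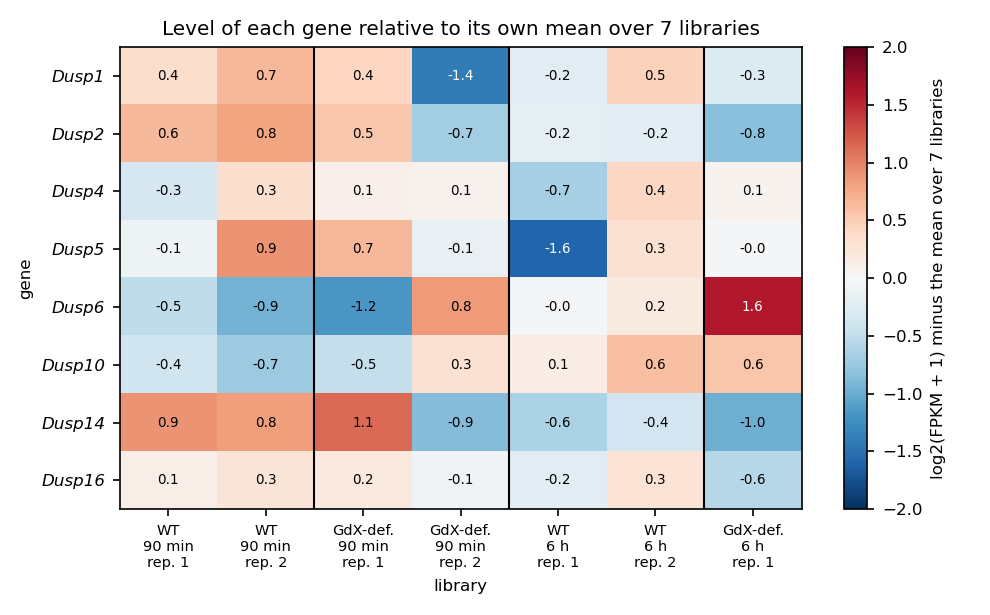
Level of each phosphatase gene (rows) in each library (columns) as log2(FPKM + 1) minus the gene's own mean over the 7 libraries, in colour and as printed values. The column of GdX-deficient replicate 2 at 90 min is low for Dusp1, Dusp2 and Dusp14 and high for Dusp6, as is that of GdX-deficient spleen at 6 h for Dusp2, Dusp14 and Dusp6.

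The loss of GdX was first examined at 90 min. No phosphatase passed the limma test at an adjusted p of 0.05, in a comparison in which 2 of 11378 genes (0.0176%) did and 862 (7.58%) had an unadjusted p under 0.05. None of the 8 had an unadjusted p under 0.05. Differences are given as GdX-deficient minus wild type in log2(FPKM + 1), where the pseudocount shrinks those of low genes. Dusp1 differed by -0.99 (SE 0.51, 95% confidence interval -2.14 to 0.15, limma adjusted p = 0.621) and Dusp2 by -0.80 (SE 0.37, interval -1.63 to 0.03, adjusted p = 0.621). Dusp14 differed by -0.73 (SE 0.52) and Dusp6 by 0.56 (SE 0.55), with intervals of -1.90 to 0.43 and -0.68 to 1.80. Dusp10 differed by 0.48, Dusp4 by 0.11, Dusp5 by -0.14 and Dusp16 by -0.13 (the last pair by 0.065 and 0.076 after rescaling without globin genes), and the adjusted p of these 6 genes lay between 0.642 and 0.932. Only Dusp2 had libraries that did not overlap between the genotypes, 1 of 8 phosphatases against 47.5% of all genes (23.4% lower). The median difference of the 8 was -0.13, beside 0.07 for all genes.

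The larger of these differences depended on 1 library. Without GdX-deficient replicate 2, Dusp1 differed by -0.08, Dusp2 by -0.18, Dusp6 by -0.44 and Dusp14 by 0.27, the last pair with the opposite sign. Without GdX-deficient replicate 1 they differed by -1.91, -1.42, 1.57 and -1.73, still with no call (limma adjusted p = 0.133 for Dusp1 and Dusp2, 0.165 for Dusp6 and 0.0893 for Dusp14). Neutrophil markers were higher in replicate 2 than in the other 3 libraries at 90 min for 6 of 6 genes, B cell markers for 5 of 6, markers of tissue handling stress for 5 of 6, and NK cell markers for 3 of 4. T cell and red cell markers were highest there for 3 of 6 and 3 of 5, and dendritic cell, red pulp macrophage and stromal markers for 2 of 5, 1 of 6 and 1 of 5. Their part was not tested.

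At 6 h, with a single GdX-deficient library, levels were first described by size. A gene was counted when it differed at least 2-fold on that scale from the mean of the wild-type pair and lay outside both, which held for 22% of all genes. Dusp6 was counted, with a difference of 1.52, as were 16.5% of all genes on the higher side. Dusp2, Dusp16, Dusp14 and Dusp1 lay below both wild-type libraries by less than that, with differences of -0.62, -0.59, -0.47 and -0.39, whereas Dusp5 (0.63), Dusp10 (0.19) and Dusp4 (0.19) lay between them. Lying outside the pair on either side was common, 5 of 8 phosphatases against 80.3% of all genes, with 1 above (54.9% of genes) and 4 below (25.3%). Without wild-type replicate 2 at 6 h, Dusp5 was counted too, with a difference of 1.58, in an alternative that counted 33.7% of all genes. Without wild-type replicate 1 its difference was -0.31, and 16.6% of all genes were counted. A limma contrast added after the data were seen, in which the single library is assumed to vary like the other groups, called 0 of the 8, against 3.96% of all genes. Dusp6 had an unadjusted p under 0.05, as had 28.4% of all genes (SE 0.68, 95% confidence interval 0.0025 to 3.04, limma adjusted p = 0.175). The adjusted p of the other 7 lay between 0.281 and 0.806. Most cell type markers also lay above both wild-type libraries in the GdX-deficient library at 6 h: 6 of 6 for B cells and for neutrophils, 5 of 6 for T cells and for red pulp macrophages, 4 of 4 for NK cells, 5 of 5 for red cells, 4 of 5 for dendritic cells and for endothelium and stroma, and 4 of 6 for tissue handling stress. Their part in the 6 h differences was not tested.

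Taking both times in 1 model with time as a covariate (3 GdX-deficient against 4 wild-type libraries) again gave 0 phosphatases past the threshold, where 0.0439% of all genes passed. An unadjusted p under 0.05 was found for 2 of the 8, Dusp2 and Dusp6, and for 27% of all genes. Dusp6 differed by 0.95 (SE 0.43, 95% confidence interval 0.0024 to 1.89, limma adjusted p = 0.184), Dusp1 by -0.75 (SE 0.39, adjusted p = 0.230), Dusp2 by -0.73 (SE 0.28, interval -1.34 to -0.11, adjusted p = 0.139) and Dusp14 by -0.63 (SE 0.39, adjusted p = 0.311). Dusp10 differed by 0.36, Dusp16 by -0.31, Dusp5 by 0.17 and Dusp4 by 0.14 (-0.13 after quantile normalization). Dusp2 alone was lower at both times without overlap, 1 of 8 against 32.1% of all genes in either direction and 13% on the lower side. With GdX-deficient replicate 1 at 90 min left out, Dusp2 (-1.02, limma adjusted p = 0.0329), Dusp6 (1.54, 0.0139) and Dusp14 (-1.10, 0.0437) passed, in a fit that called 14.7% of all genes. With replicate 2 left out instead, none of the 8 passed, and those differences were -0.40, 0.54 and -0.10.

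**Figure D3:**
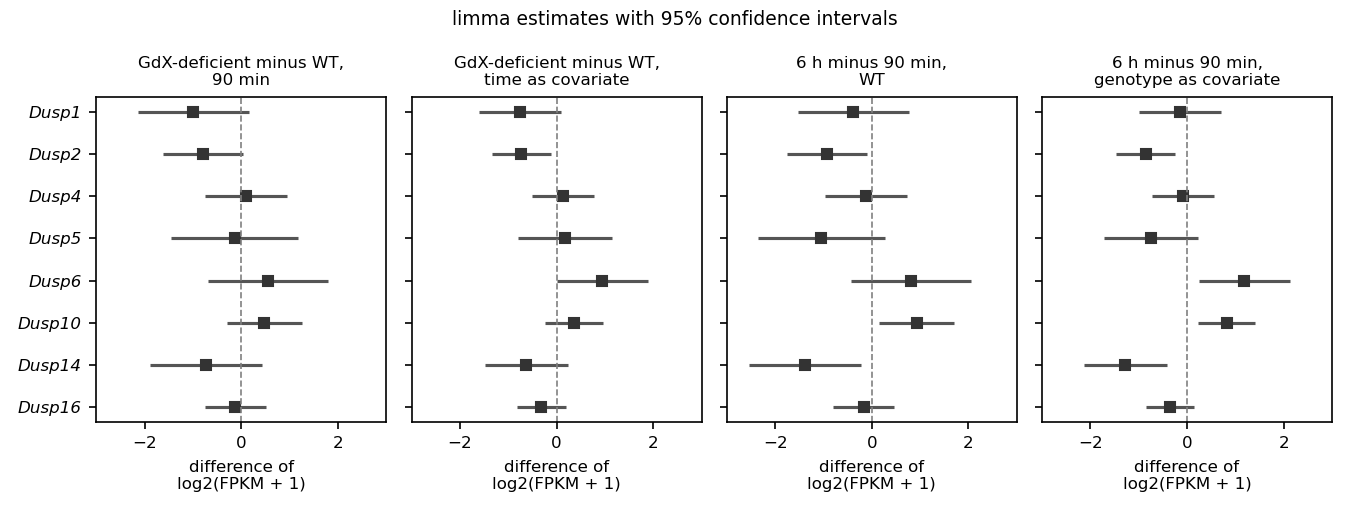
Estimated difference of log2(FPKM + 1) (horizontal axes) for each phosphatase gene (vertical axis) in the 4 tested comparisons, with 95% confidence intervals from limma as bars and a dashed line at 0. Intervals of Dusp2, Dusp6, Dusp10 and Dusp14 leave out 0 in the rightmost panel, and no adjusted p reached 0.05 in any panel.

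The passage from 90 min to 6 h was compared in wild type, where 10.7% of all genes passed, 4.39% higher and 6.32% lower at 6 h (499 and 719 genes, and 187 and 525 after rescaling without globin genes). None of the 8 phosphatases did, and 3 of them, Dusp2, Dusp10 and Dusp14, had an unadjusted p under 0.05, as did 28.7% of all genes. Dusp14 differed by -1.38 as 6 h minus 90 min (SE 0.52, 95% confidence interval -2.55 to -0.22, limma adjusted p = 0.117), Dusp5 by -1.04 (SE 0.58, adjusted p = 0.271) and Dusp2 by -0.93 (SE 0.37, interval -1.76 to -0.10, adjusted p = 0.137). Dusp10 differed by 0.93 (SE 0.35, interval 0.16 to 1.71, adjusted p = 0.113) and Dusp6 by 0.80 (SE 0.55, adjusted p = 0.371). Dusp1, Dusp16 and Dusp4 differed by -0.39, -0.16 and -0.11, the last by 0.061 after quantile normalization. Libraries of the 2 times did not overlap for 4 phosphatases, lower at 6 h for Dusp2 and Dusp14 and higher for Dusp6 and Dusp10, against 57.9% of all genes (30.3% higher and 27.6% lower). The median difference of the 8 was -0.27, beside 0.05 for all genes.

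Some of these results changed with the libraries in the fit. Where leaving one out leaves a single library in a group, that library is assumed to vary like the other groups. Dusp14 passed in a fit of only the 4 wild-type libraries (limma adjusted p = 0.0226), which called 9.59% of all genes. It also passed in fits that left a single library in a group, without GdX-deficient replicate 1 or 2 at 90 min or wild-type replicate 2 at 6 h. Without wild-type replicate 2 at 6 h Dusp5 differed by -1.99, a value that leaves out the 4.02-fold spread between its replicates there. Without wild-type replicate 1 at 6 h its difference was -0.10. Dusp10 passed after quantile normalization (1.05, limma adjusted p = 0.0417). Markers of several cell types lay lower in both wild-type libraries at 6 h than at 90 min: 6 of 6 for B cells, T cells and red pulp macrophages, 5 of 5 for red cells, 4 of 5 for dendritic cells and 3 of 4 for NK cells, but 1 of 6 for neutrophils. They were 3 of 5 for endothelium and stroma and 3 of 6 for tissue handling stress. Higher in both were 2 neutrophil markers and 1 each for dendritic cells, for endothelium and stroma, and for tissue handling stress. The summed B cell level was 380 and 427 FPKM against 1400 and 1498. Their part in the wild-type time differences was not tested.

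In GdX-deficient spleen the single 6 h library lay below both 90 min libraries for Dusp2, Dusp14, Dusp16 and Dusp4, above both for Dusp6 and Dusp10, and between them for Dusp1 and Dusp5. That is 6 of 8 outside the pair, against 72.6% of all genes (56.8% above and 15.8% below). Dusp6 (1.76) and Dusp14 (-1.12) differed by at least 2-fold on the log2(FPKM + 1) scale, as did 5.73% of all genes (4.09% higher and 1.64% lower). The others differed by -0.75 (Dusp2), 0.65 (Dusp10), -0.63 (Dusp16), -0.27 (Dusp5), 0.22 (Dusp1) and -0.03 (Dusp4). Against replicate 1 at 90 min alone, 4 of the 8 were counted, Dusp6 by 2.77, Dusp14 by -2.12, Dusp2 by -1.37 and Dusp10 by 1.04, as were 11.7% of all genes. Against replicate 2 alone, Dusp1 was counted, with a difference of 1.13, and none of those 4, where 5.14% of all genes were counted. The size of the time difference therefore depended on the 90 min library used. The same added limma contrast called 0 of the 8 and 0% of all genes over time in GdX-deficient spleen, with an unadjusted p under 0.05 for Dusp6 (limma adjusted p = 0.517) and for 8% of all genes. The interaction of genotype and time, added in the same way, called 0 of the 8 and 0.0703% of all genes. At an unadjusted p under 0.05 it held 0 of the 8 and 9.98% of all genes. Its largest values among the phosphatases were 0.96 for Dusp6 (SE 0.87) and 0.77 for Dusp5 (SE 0.92).

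With genotype as a covariate over all 7 libraries, 5.44% of all genes passed, 2.79% higher and 2.65% lower at 6 h, and again none of the 8. The split was 318 higher and 301 lower, against 305 and 578 after quantile normalization and 102 and 187 after rescaling without globin genes. An unadjusted p under 0.05 was found for 4 of them and for 26.6% of all genes. Dusp14 came nearest, at -1.28 (SE 0.39, 95% confidence interval -2.14 to -0.41, limma adjusted p = 0.0756), followed by Dusp2 at -0.86 (SE 0.28, interval -1.47 to -0.24, adjusted p = 0.0880) and Dusp10 at 0.82 (SE 0.27, interval 0.23 to 1.41, adjusted p = 0.0891). Dusp6 differed by 1.19 (SE 0.43, interval 0.24 to 2.13, adjusted p = 0.113), Dusp5 by -0.74, Dusp16 by -0.35, Dusp1 by -0.14 and Dusp4 by -0.08. For the first 4 of these genes the libraries of the 2 times did not overlap in either genotype, 4 of 8 against 33.6% of all genes (24% higher and 9.6% lower). Without GdX-deficient replicate 2 at 90 min, which leaves a single library in that group, Dusp14 differed by -1.63 and Dusp2 by -1.07.

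By the levels of the 8 phosphatases, GdX-deficient replicate 2 at 90 min was nearer to the 6 h libraries than to those of its own time. Its root mean square difference of log2(FPKM + 1) over the 8 genes was 0.53 from GdX-deficient spleen at 6 h and 0.80 and 0.78 from wild type at 6 h. From its own replicate 1 it was 1.33, and from wild type at 90 min 1.15 and 1.36. Replicate 1 was 0.23 from wild-type replicate 2 and 0.41 from wild-type replicate 1 at 90 min. Over all tested genes the same library was 0.49 from GdX-deficient spleen at 6 h, 0.54 from its replicate 1, 0.64 and 0.76 from wild type at 90 min and 0.92 and 1.13 from wild type at 6 h, so that over all genes it was nearer to wild type of its own time. The GdX-deficient library at 6 h was itself nearer over all genes to wild-type replicate 2 and GdX-deficient replicate 1 at 90 min (0.69 each) than to the wild-type libraries at 6 h (0.77 and 1.04), with 0.84 from wild-type replicate 1 at 90 min. Over the 8 phosphatases it was the other way round, 0.90 and 0.72 from wild type at 6 h against 1.23 and 1.44 from wild type and 1.44 from GdX-deficient replicate 1 at 90 min. Its summed B cell level, 1698 FPKM, and T cell level, 248 FPKM, lay within the ranges at 90 min (1203 to 1993 and 225 to 309) and above wild type at 6 h (380 and 427 for B cells, 145 and 118 for T cells). Over all genes, nearness to this library was therefore not nearness to wild type at 6 h. These distances describe 7 libraries and carry no test.

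The 8 genes did not share 1 pattern. Compared by the root mean square difference of mean-centred log2(FPKM + 1) over the 7 libraries, Dusp2 and Dusp14 were nearest to each other (0.32), as were Dusp6 and Dusp10 (0.55) and Dusp4 and Dusp16 (0.35). Dusp1 was nearest to Dusp2 (0.45) and Dusp5 to Dusp4 (0.48). Among all other named genes, the 2 nearest to Dusp2 were Akap2 (0.11) and Gpr18 (0.12), and Gpr18, a receptor of lymphocytes, was listed at 163 to 189 FPKM in the 3 libraries at 90 min other than GdX-deficient replicate 2 and at 55.1 to 106 in the remaining 4. Dusp14 was nearest to Vash1 (0.14) and Zbtb10 (0.20), Dusp1 to Steap4 (0.22) and Grasp (0.24), and Dusp5 to Dennd5a (0.27) and Etv3 (0.27), the last a transcriptional repressor. For Dusp6 they were Il16 (0.26) and Lpar5 (0.28), for Dusp10 Zfp958 (0.11) and Gtf2h2 (0.12), and for Dusp16 Rbbp8 (0.097) and Gabpb1 (0.11). Dusp4 was nearest to Styx, a catalytically inactive relative of the family (0.075), and to Mapkapk3, a kinase activated by p38 (0.076). Each of these genes was lower in wild-type replicate 1 than in wild-type replicate 2 at both times. Styx was listed at 5.72 against 7.87 FPKM at 90 min and 3.81 against 8.82 at 6 h. Mapkapk3 was listed at 12.3 against 19.0 and at 8.29 against 19.4. Dusp5, Dennd5a and Etv3 differed between the wild-type replicates in the same direction. Shared regulation was not tested.

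Other genes of the pathway were read from 9 lists. In both genotype tests 0 genes of any of them passed limma. Without GdX-deficient replicate 1 at 90 min, the fit with time as a covariate, which then called 14.7% of all genes, called 3 immediate early genes, Junb among them (-1.04, limma adjusted p = 0.0354), 3 MAP kinases, Mapk11 among them (1.17, 0.0329), 2 MAP kinase kinase kinases, 2 kinases activated by MAP kinases and 1 MAP kinase kinase. At 6 h, by size alone, 5 of 10 kinases activated by MAP kinases, 3 of 9 MAP kinases, 3 of 12 MAP kinase kinase kinases, 1 of 7 MAP kinase kinases and 1 of 8 other atypical phosphatases were counted higher in the GdX-deficient library, against 16.5% of all genes. The markers of most cell types lay above both wild-type libraries there too, as given for the phosphatases. None was counted among 2 other typical MAP kinase phosphatases, 7 other phosphatases that act on MAP kinases and 6 Sprouty and Spred inhibitors. Of 13 immediate early genes 1 was counted higher and 3 lower, against 5.47% of all genes lower. In the wild-type time comparison, which called 6.32% of all genes lower, 1 of 2 other typical MAP kinase phosphatases tested was lower at 6 h, Dusp8, a JNK-directed phosphatase listed at 2.25 and 1.92 FPKM at 90 min and 0.43 and 0.52 at 6 h (log2 difference -1.06, limma adjusted p = 0.0238). Of 8 other atypical dual-specificity phosphatases 1 was lower, Dusp3 (-1.14, limma adjusted p = 0.0375), and of 7 other phosphatases that act on MAP kinases 0 passed. Of 9 MAP kinases 1 was lower, Mapk11, a p38 isoform (-1.56, limma adjusted p = 0.0199). Of 7 MAP kinase kinases 1 was lower, Map2k3, which activates p38 (-1.13, limma adjusted p = 0.0238), and of 12 MAP kinase kinase kinases 1, Map3k8, which links Toll-like receptors to ERK (-1.46, limma adjusted p = 0.0492). Of 10 kinases activated by MAP kinases 0 passed, and of 6 Sprouty and Spred feedback inhibitors 1 was lower, Spry1 (-1.24, limma adjusted p = 0.0263). Markers of several cell types lay lower at 6 h in wild type too, as given for the phosphatases, and their part was not tested. Without wild-type replicate 1 at 90 min, Dusp8 (adjusted p = 0.163), Dusp3 (0.216), Mapk11 (0.0568), Map2k3 (0.0880) and Spry1 (0.0957) no longer passed in limma. The same 5 were lost without wild-type replicate 2 at 90 min (0.0927 to 0.279), and Dusp3 also without wild-type replicate 2 at 6 h (0.0510). After rescaling without globin genes Dusp3 (-1.31, SE 0.38, limma adjusted p = 0.0717), Map3k8 (-1.59, SE 0.48, 0.0865) and Spry1 (-1.46, SE 0.39, 0.0581) missed the threshold although their differences were larger. With no filter on low values Dusp3 (0.0649), Mapk11 (0.0657) and Spry1 (0.0724) were lost in limma. Map3k8 passed limma in 7 of 16 settings. It was lost with a pseudocount of 0.1 (adjusted p = 0.0520), a mean FPKM of at least 5 (0.0550), only the 4 libraries compared (0.0702) and no filter (0.142), and without any of 4 libraries, wild-type replicate 2 at 90 min (0.151), wild-type replicate 1 at 6 h (0.0966) and GdX-deficient replicates 1 (0.0723) and 2 (0.0715) at 90 min.

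Immediate early genes, the transcription factors and regulators that MAP kinases switch on within minutes, held the most calls of any list in the 2 time tests. Of 13 tested, 7 were lower at 6 h in wild type and 0 higher, against 6.32% of all genes called lower. Their median difference was -1.51, and 12 of 13 lay lower at 6 h without overlap, against 27.6% of all genes. Those with the smallest p were Fosl2 (-1.63, limma adjusted p = 0.0121), Jund (-1.51, 0.0130) and Ier3 (-1.77, 0.0163). Egr1 (-2.12, limma adjusted p = 0.0195) and Fos (-1.81, 0.0186), named after their values were seen, differed by more. Cell type markers also lay lower at 6 h in wild type, as given for the phosphatases. They were 6 of 6 for B cells, T cells and red pulp macrophages and 5 of 5 for red cells, but 3 of 6 for tissue handling stress and 1 of 6 for neutrophils. Their part was not tested. With genotype as a covariate 8 of 13 immediate early genes were lower, against 2.65% of all genes, among them Fosl2, Junb (-1.45, limma adjusted p = 0.0188) and Jund (-1.24, 0.0219), with a list median of -1.40. Map2k3 (-0.995, limma adjusted p = 0.0265) and Map3k8 (-1.44, 0.0271) were the only genes of the other 8 lists to pass there. In wild type Fosl2 did not pass in limma without replicate 1 (adjusted p = 0.0568) or 2 (0.0506) at 90 min, nor Ier3 without replicate 1 (0.0532), and with no filter on low values Junb (0.0912), Jund (0.0524) and Ier3 (0.0724) were lost. With no filter, Fosl2, Junb, Jund, Map2k3 and Map3k8 all missed the threshold with genotype as a covariate (limma adjusted p of 0.0506 for Fosl2 to 0.0896 for Map3k8). With genotype as a covariate, Jund (0.0581 to 0.0732) and Map2k3 (0.0507 to 0.116) did not pass without either wild-type library at 90 min or wild-type replicate 2 at 6 h, Map2k3 also not without wild-type replicate 1 at 6 h, Map3k8 not without wild-type replicate 2 at 90 min (0.0646), and Junb not without wild-type replicate 2 at 6 h (0.0543). With no filter on low values the wild-type count was 2 and the count with genotype as a covariate 0. Leaving out single libraries moved the wild-type count in both directions. The count with genotype as a covariate was 3 without wild-type replicate 1 at 90 min, 4 without wild-type replicate 2 at 90 min, 5 without wild-type replicate 1 at 6 h and 2 without wild-type replicate 2 at 6 h. At 90 min the genotypes differed in this list by a median of -0.76, with 0 of 13 called and 8 of 13 lower without overlap, against 23.4% of all genes. Without GdX-deficient replicate 1 at 90 min the median was -1.33. Without GdX-deficient replicate 2 at 90 min it was -0.34, and Ier3 differed by -0.81, Junb by -0.34 and Jund by -0.60, beside -1.21, -0.91 and -0.86 with that replicate. With that library kept, Ier3 was called there in a fit of only the 4 libraries compared (limma adjusted p = 0.0325) and without wild-type replicate 1 (0.0349) or 2 (0.0316) at 6 h. GdX-deficient replicate 2 had less of Junb, at 212 FPKM against 465 to 628 in the other 3 libraries at 90 min, as it had of Dusp1 and Dusp2. Markers of neutrophils (6 of 6), B cells (5 of 6) and tissue handling stress (5 of 6) were highest in this library at 90 min, those of the other lists less often. Their part was not tested.

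**Figure D4:**
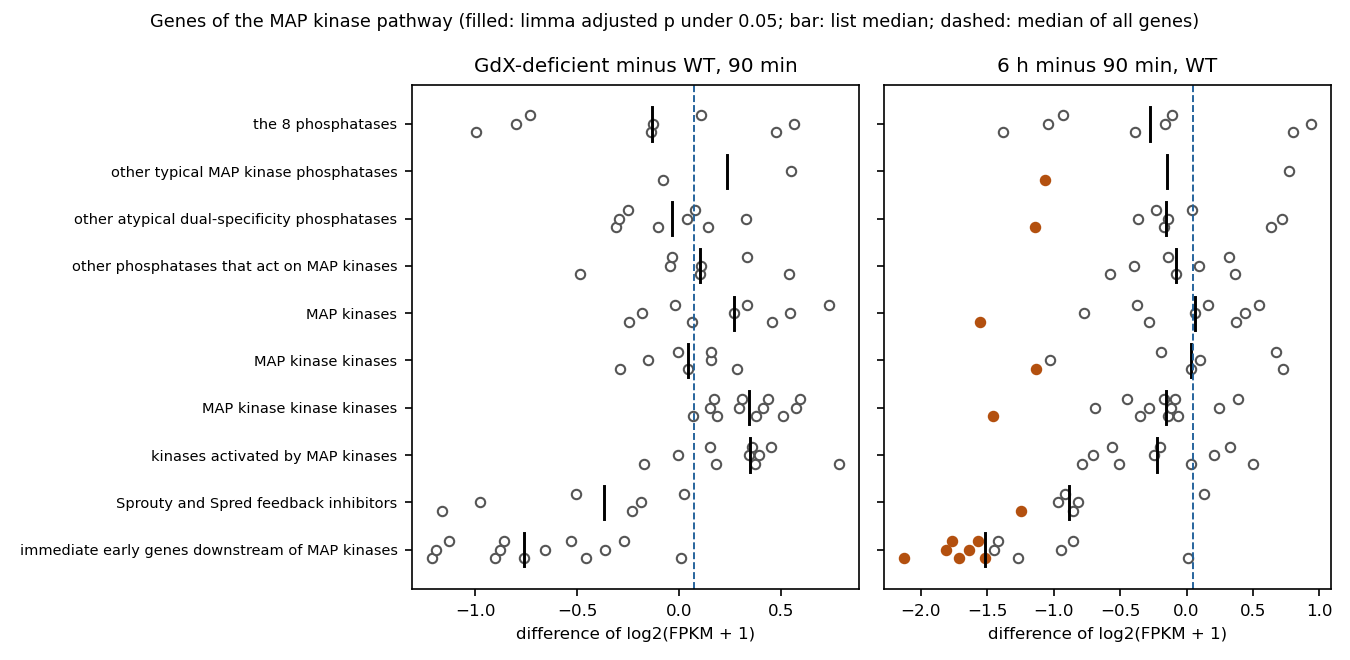
Difference of log2(FPKM + 1) (horizontal axes) of every tested gene in the lists of the pathway (rows), for genotype at 90 min and for time in wild type. Filled circles passed limma at an adjusted p under 0.05, bars are list medians and dashed lines the median of all genes; the 8 phosphatases hold no filled circle, and the row of immediate early genes holds 7 in the time panel, with a median of -1.51.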

How the data were processed

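Each library has a column of FPKM, deposited by the authors to 2 decimals, per the file headers. The submitters' processing notes name HISAT2 2.0.4, Bowtie2, RSEM and GRCm38.p5, without roles. Libraries were made by oligo(dT) selection or rRNA depletion per the labels' protocols, and which of these is not given. Depth was estimated from the steps between low FPKM values of 159 to 191 genes per library. At the depth chosen, these genes lay on average 0.155 to 0.175 fragments from a whole number. The depths and the fragment numbers derived from them are therefore rough. Depth limits low genes most.

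Values were analysed as log2(FPKM + 1) with limma 3.58.1 in R 4.3.3 (trended empirical Bayes, two-sided p, Benjamini-Hochberg over all genes with a mean of at least 1 FPKM, threshold 0.05). Genotype at 90 min and time in wild type came from a fit of 4 groups with 3 residual degrees of freedom, and the covariate comparisons from additive fits. The 6 h GdX-deficient group has 1 library, so comparisons with it were described by size. Their limma contrasts and the interaction, with spread pooled over groups, were added after the data were seen. The fits were tested on simulated data.

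The members, the gene lists and the rules were chosen with earlier results of these data known. Named were all 8 members, Ubl4a and Gm44504, the 2 nearest genes to each member, and, from each list in each test, at most 3 genes in each direction, those of smallest p past the threshold.

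Alternatives were a pseudocount of 0.1, quantile normalization, rescaling without 10 globin genes, removal of a transcript length trend, no filter or a mean of at least 5 FPKM, a replicate block, fitting the 4 compared libraries on their own, and leaving out each library. Same-numbered libraries deviated together between wild type at 90 min and wild type at 6 h (correlation 0.77). They did not between GdX-deficient spleen at 90 min and wild type at 90 min (-0.12) or at 6 h (0.08). The numbers were not taken as pairs in the main fits, which for time in wild type leaves out this shared deviation. Replicate 2 minus replicate 1 rose with transcript length in wild type (Spearman correlation 0.45 at 90 min and 0.59 at 6 h), and less in GdX-deficient spleen at 90 min (0.16).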

Additional observations from a re-analysis of the deposited data

Results flagged for a closer look

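Dusp3, an atypical dual-specificity phosphatase, was listed at 10.3 and 11.3 FPKM in wild type and 7.75 and 10.2 in GdX-deficient spleen at 90 min, and at 4.43 and 4.28 in wild type and 11.5 in GdX-deficient spleen at 6 h. At 90 min its GdX-deficient libraries lay below wild type by little, with 10.22 against 10.28 FPKM for the nearest pair (log2 difference -0.25, SE 0.29, limma adjusted p = 0.738). At 6 h the single GdX-deficient library, whose time label was not settled, lay above both by 1.22 on the log2(FPKM + 1) scale. In that comparison 16.5% of all genes were counted higher, and markers of most cell types lay above both too. Their part was not tested. Over time Dusp3 was lower at 6 h in both wild-type libraries and higher in the GdX-deficient one, by 0.34. Map2k3, a kinase that activates p38, lay below wild type in both GdX-deficient libraries at 90 min (45.6 and 40.5 FPKM against 47.0 and 59.4) and just above both at 6 h (24.4 against 23.0 and 24.2), with a difference of 0.045. For Dusp3 the sign differed between the times and between the genotypes. For Map2k3 the 6 h genotype difference was too small to show a move, and its level was lower at 6 h in both genotypes (-1.13 in wild type and -0.79 in GdX-deficient spleen). In a limma interaction contrast added after the data were seen the difference was 1.47 for Dusp3 (SE 0.46, adjusted p = 0.285) and 0.34 for Map2k3 (SE 0.40, adjusted p = 0.895).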

How the results depend on the processing

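Of the members' recomputed differences, 501 kept their sign and their side of the threshold or stayed within the spread, 23 changed sign in the tested comparisons, 11 newly passed and 13 moved by more than the replicate spread. No member passed for genotype at 90 min under any alternative. In wild type over time 1 member passed after quantile normalization and 1 with only the 4 libraries compared, and 0 to 2 when single libraries were left out. That range was 0 to 3 for genotype with time as a covariate and 0 to 2 for time with genotype as a covariate. The members counted without a test were 2 at 6 h with a pseudocount of 0.1 and 1 to 2 with single libraries left out, and 1 to 4 for time in GdX-deficient spleen. With limma and the spread pooled over groups, chosen after seeing the data, both came to 0.

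Sign changes among members in the 4 tested comparisons were these, with ranges over leaving out 1 library. For genotype at 90 min, Dusp5 was 0.065 and Dusp16 0.076 when rescaled without globin genes, and Dusp4 ranged from -0.22 to 0.43, Dusp5 from -0.65 to 0.37, Dusp6 from -0.44 to 1.57, Dusp14 from -1.73 to 0.27 and Dusp16 from -0.25 to 0.00092. For time in wild type, Dusp4 was 0.061 after quantile normalization and ranged from -0.65 to 0.43, and Dusp16 from -0.41 to 0.079. For genotype with time as a covariate, Dusp4 was -0.13 after quantile normalization and ranged from -0.046 to 0.31, and Dusp5 from -0.20 to 0.50. For time with genotype as a covariate, Dusp4 was 0.026 with the replicate block and ranged from -0.34 to 0.20, and Dusp1 from -0.49 to 0.12. In the comparisons described by size, at 6 h Dusp4 was -0.34 and Dusp10 -0.36 after quantile normalization, and without wild-type replicate 1 Dusp4 was -0.35, Dusp5 -0.31 and Dusp10 -0.035. Over time in GdX-deficient spleen Dusp1 was -0.69 without replicate 2 and Dusp5 0.13 without replicate 1 at 90 min. The replicate block changed no member's call, and it moved the count over all genes for time in wild type from 1218 to 2345 and for genotype with time as a covariate from 5 to 12. The cause of these changes was not tested.

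Counts over all genes ran over all alternatives from 0 to 183 for genotype at 90 min (2 as reported), 450 to 2345 for time in wild type (1218), 2 to 1674 for genotype with time as a covariate (5) and 104 to 1204 for time with genotype as a covariate (619). Genes counted without a test ran from 1832 to 3830 at 6 h (2501) and from 585 to 1336 over time in GdX-deficient spleen (652). Counts of immediate early genes lower at 6 h ran from 2 (no filter) to 12 in wild type and from 0 (no filter) to 10 with genotype as a covariate. Rescaling without globin genes moved the median of all genes for genotype at 90 min from 0.07 to 0.27, and quantile normalization moved that for genotype with time as a covariate from 0.16 to -0.01. Having at most 2 libraries per group limits every comparison, and the low levels of Dusp4, Dusp10 and Dusp14 rest on few fragments.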
